A study of Homo sapiens with 6 samples.

Results

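The heat shock proteins and their partner chaperones were followed by RNA-seq in PC3 cells, human prostate cancer cells first grown from a metastasis in bone. The genes were taken by symbol from the count files: HSP90AA1, HSP90AB1 and HSP90B1, the HSPA (HSP70) and HSPB (small heat shock protein) series, HSPD1, HSPE1, HSPH1, the factors HSF1, HSF2 and HSF4, the DNAJA, DNAJB and DNAJC (J-domain) series, and symbols beginning with CCT2 to CCT8. A total of 86 of the 24462 symbols met this rule. Of these, 78 had enough counts to be tested. HSPB2, HSPB3 and DNAJB3 had 0 counts in every library, and CCT8L2, DNAJB8, HSPA12B, HSPB7 and HSPB9 had at most 10 in any library. The symbols reach beyond the cytosol, since HSPA5 and HSP90B1 work in the endoplasmic reticulum (ER) and HSPA9, HSPD1 and HSPE1 in mitochondria. TCP1, the remaining subunit of the TRiC chaperonin, fell outside the rule and was counted with a separate list of 48 co-chaperones.

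The cultures received 80 nM of either a non-targeting siRNA (si-Control, 3 libraries) or siRNA against CITED2, a transcriptional co-regulator (si-CITED2, 3 libraries), and were analysed 72 h later. Both groups were otherwise untreated PC3 cells, and the labels give no other difference between them. The study describes the experiments as independent, whereas the labels do not say that the cultures were separate. If they were not, the p-values measure only the spread between these libraries. The study's methods list a single CITED2 siRNA sequence, although the labels speak of siRNAs, so effects of the loss of CITED2 and other effects of that siRNA cannot be told apart.

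Heat shock proteins are molecular chaperones, which bind unfolded or partly folded proteins and help them fold, assemble or be degraded. HSP70 proteins take up clients through ATP-driven cycles that are started by J-domain (DNAJ) partners and ended by nucleotide exchange factors. HSP90 proteins act later, on nearly folded clients such as kinases and steroid receptors, and the barrel-shaped chaperonins (TRiC in the cytosol, HSP60 with HSP10 in mitochondria) fold proteins in an enclosed chamber. The transcription factor HSF1 induces cytosolic and some mitochondrial chaperones by binding heat shock elements, whereas the unfolded protein response of the ER induces HSPA5, HSP90B1 and other luminal chaperones through ER stress elements. Cancer cells commonly express many of these genes at high levels.

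The promoters printed here are those of the members that changed and held one of these elements, since their genes moved in different directions. The sequences are RefSeq promoters of the build GRCh38.p14, from 250 bases before to 50 bases after the gene start. The counts were made on hg19, so the coordinates serve only to place the sequences. Capitals in the next 5 sequences mark heat shock element trimers, in which 3 units alternate between GAA and its reverse complement TTC with 2 free bases between neighbours. HSP90AA1 lies at chr14:102086995-102087294 on the minus strand, HSP90AB1 at chr6:44247693-44247992 on the plus strand, HSPA8 at chr11:123062087-123062386 on the minus strand, HSPD1 at chr2:197499791-197500090 on the minus strand and DNAJB6 at chr7:157336754-157337053 on the plus strand.
HSP90AA1: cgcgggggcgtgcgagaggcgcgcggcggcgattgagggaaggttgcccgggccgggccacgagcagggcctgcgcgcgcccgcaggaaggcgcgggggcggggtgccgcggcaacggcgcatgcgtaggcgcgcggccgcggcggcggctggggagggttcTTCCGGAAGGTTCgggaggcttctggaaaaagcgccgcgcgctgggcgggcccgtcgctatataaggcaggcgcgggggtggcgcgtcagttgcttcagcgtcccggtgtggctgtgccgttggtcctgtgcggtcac
HSP90AB1: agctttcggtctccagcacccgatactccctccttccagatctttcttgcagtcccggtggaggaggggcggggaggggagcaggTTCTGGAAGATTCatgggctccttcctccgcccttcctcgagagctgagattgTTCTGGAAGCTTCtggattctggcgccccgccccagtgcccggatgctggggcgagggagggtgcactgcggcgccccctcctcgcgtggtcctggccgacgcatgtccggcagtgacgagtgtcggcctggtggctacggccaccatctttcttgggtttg
HSPA8: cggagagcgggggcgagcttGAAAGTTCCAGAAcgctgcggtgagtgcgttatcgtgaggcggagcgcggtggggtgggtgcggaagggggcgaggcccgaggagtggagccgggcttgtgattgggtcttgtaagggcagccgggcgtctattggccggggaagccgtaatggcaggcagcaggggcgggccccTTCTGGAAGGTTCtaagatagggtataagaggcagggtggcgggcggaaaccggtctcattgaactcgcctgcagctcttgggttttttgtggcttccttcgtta
HSPD1: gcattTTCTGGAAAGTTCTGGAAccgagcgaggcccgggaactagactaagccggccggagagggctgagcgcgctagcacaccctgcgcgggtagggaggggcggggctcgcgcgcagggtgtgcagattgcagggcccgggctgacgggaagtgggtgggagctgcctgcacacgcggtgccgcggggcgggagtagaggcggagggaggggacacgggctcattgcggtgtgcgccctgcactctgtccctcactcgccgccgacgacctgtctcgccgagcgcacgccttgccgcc
DNAJB6: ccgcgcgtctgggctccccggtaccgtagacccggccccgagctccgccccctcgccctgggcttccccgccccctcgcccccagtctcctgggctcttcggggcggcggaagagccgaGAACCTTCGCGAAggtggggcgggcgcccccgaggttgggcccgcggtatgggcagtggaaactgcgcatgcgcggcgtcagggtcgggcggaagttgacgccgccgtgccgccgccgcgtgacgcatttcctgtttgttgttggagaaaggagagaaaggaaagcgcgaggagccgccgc

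Capitals in the sequences of HSPA5 and HSP90B1 mark ER stress elements, in which CCAAT and CCACG are separated by 9 free bases, on either strand. HSPA5 lies at chr9:125241294-125241593 on the minus strand and HSP90B1 at chr12:103930160-103930459 on the plus strand.
HSPA5: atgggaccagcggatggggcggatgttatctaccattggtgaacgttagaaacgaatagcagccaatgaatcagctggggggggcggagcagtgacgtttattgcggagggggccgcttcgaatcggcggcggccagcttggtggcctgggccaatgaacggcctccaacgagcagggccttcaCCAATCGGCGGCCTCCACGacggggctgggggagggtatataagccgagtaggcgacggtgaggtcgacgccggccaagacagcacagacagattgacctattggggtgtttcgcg
HSP90B1: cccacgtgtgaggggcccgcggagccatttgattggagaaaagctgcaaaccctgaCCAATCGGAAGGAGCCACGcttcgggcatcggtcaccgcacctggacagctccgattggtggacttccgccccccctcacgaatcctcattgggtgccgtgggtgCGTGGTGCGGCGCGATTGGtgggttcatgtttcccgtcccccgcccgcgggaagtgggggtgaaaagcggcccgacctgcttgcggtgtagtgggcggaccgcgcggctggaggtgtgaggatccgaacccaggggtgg

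The trimer began 88 bases before the start of HSP90AA1, 165 and 112 bases before that of HSP90AB1, 230 and 55 bases before that of HSPA8 and 131 bases before that of DNAJB6. In HSPD1 a pair of overlapping trimers began 245 and 240 bases before the start. The ER stress element began 66 bases before the start of HSPA5 and 194 and 89 bases before that of HSP90B1. Promoters of 73 of the 86 members were found in the table, some with several starts. A trimer was present in 7 of these members and in 0.49% of all 35116 promoters. An ER stress element was present in 2 members and in 0.0769% of all promoters. The shorter pair of units (GAANNTTC or TTCNNGAA, which read the same on either strand and lie within every trimer) occurred in 25 members and in 13.5% of all promoters. A member was counted where any of its listed starts held the motif, whereas the share of all promoters counts each start singly. The member counts and these shares are therefore not directly comparable. All are matches of letters in a fixed window.

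The total count was between 19508925 and 28936374 per library, so that 3 counts, the smallest number taken as detectable, corresponded to 0.104 to 0.154 CPM (counts scaled to a common library total). Levels are given as normalized counts, which are counts scaled to a common library size, and differences as log2 fold changes with their standard error (SE). A gene passed the test where its adjusted p was under 0.05 in the quasi-likelihood test of edgeR, adjusted by Benjamini-Hochberg over all 16314 genes tested, and every adjusted p comes from that test. The CITED2 mRNA itself went against the labels. Its level was 859, 892 and 773 normalized counts in the libraries labelled si-Control and 1084, 921 and 984 in those labelled si-CITED2 (exact permutation test, two-sided, p = 0.1, the smallest that 3 against 3 libraries allow; log2 fold change 0.24 ± 0.07 (SE), adjusted p = 0.0363). That call was lost without TMM scaling and in 4 of the 6 fits without 1 library, those without si-Control replicate 1, si-Control replicate 3, si-CITED2 replicate 1 or si-CITED2 replicate 3, with log2 fold changes of 0.17 to 0.29 and the adjusted p up to 0.154. The study took the knockdown from the protein. "Rose" and "fell" therefore mean higher and lower in the libraries labelled si-CITED2 than in those labelled si-Control, and every direction rests on these labels. KRT8, KRT18, EPCAM and VIM, which mark this epithelial line with mesenchymal features, had at least 1735 counts in every library. These markers moved with the groups: KRT8, KRT18 and VIM rose (log2 fold changes 0.24, 0.18 and 0.26, adjusted p = 0.0026, 0.0267 and 0.000655) and EPCAM fell (log2 fold change -0.33, adjusted p = 0.0011), and their part in the chaperone differences was not tested. KLK3, a prostate marker that this line lacks, had 0 to 2 counts. Of the markers of blood and endothelial cells, PTPRC had 0 to 2 counts and PECAM1 4 to 11. HBB had 0 counts in every library labelled si-Control and 20 to 32 in those labelled si-CITED2, and its part in the chaperone differences was not tested.

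The cytosolic HSP90 genes and HSPA8 fell in the libraries labelled si-CITED2, while the HSP90 and HSP70 genes of the ER rose. Of the 78 tested members, 21 passed the test, 10 of them higher and 11 lower. This is 26.9% of the tested members, against 17.4% of all tested genes (9.36% higher and 8.09% lower). The groups did not overlap for 32 of the 78 tested members, including all 21 that passed. Over all tested genes they did not overlap for 5309 of 16314, or 32.5%. Most of the differences were small: the median absolute log2 fold change was 0.12 over the tested members and 0.14 over all genes. Among the 21 members that passed, DNAJB2 alone changed by at least 1.5 times. Of the 2846 genes that passed among all tested genes, 616 changed by at least 1.5 times. A difference in part of the cells and a smaller one in all cells cannot be told apart in bulk RNA.

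**Figure D1:**
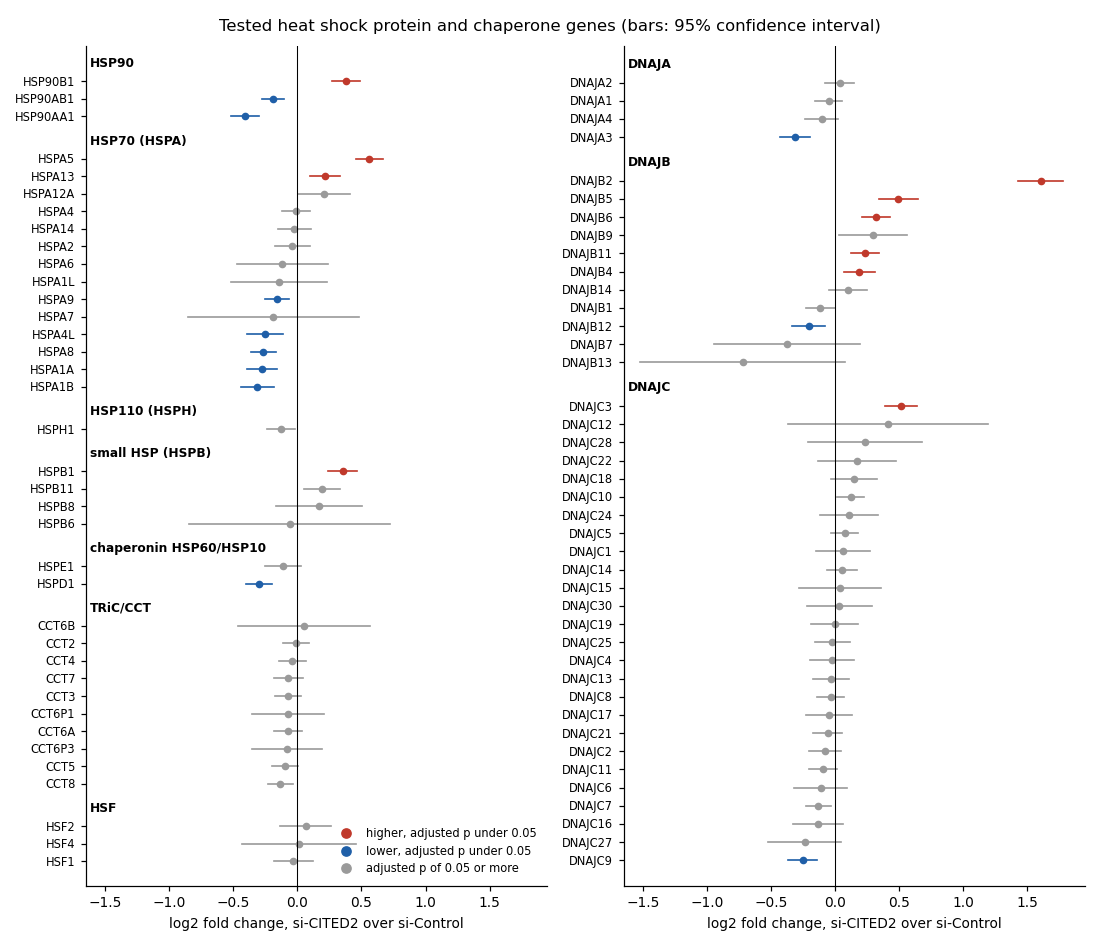
Log2 fold change (x axis; libraries labelled si-CITED2 over si-Control) of the 78 tested members by gene family, each with its 95% confidence interval as a bar. The 10 members that rose and the 11 that fell are coloured, and DNAJB2 stands farthest to the right at 1.60.

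All 3 HSP90 genes changed, and not in the same direction. HSP90AA1 encodes the heat-inducible cytosolic HSP90α. Its level was 122345, 118494 and 118106 normalized counts in the libraries labelled si-Control and 83032, 94275 and 93268 in those labelled si-CITED2. Every library labelled si-CITED2 lay below every library labelled si-Control, with replicate 1 lowest. HSP90AA1 fell by 24.6% (log2 fold change -0.41 ± 0.05 (SE), adjusted p = 2.33e-05). HSP90AB1, which encodes the constitutive HSP90β, had 143003, 141959 and 147315 against 124309, 126838 and 127531 normalized counts. It fell by 12.4% (log2 fold change -0.19 ± 0.04 (SE), adjusted p = 0.00403), again without overlap. HSP90B1 encodes GRP94, the HSP90 of the ER lumen. Its level was 31721, 31324 and 30916 against 37499, 42060 and 42404 normalized counts, and it rose 1.30-fold (log2 fold change 0.38 ± 0.05 (SE), adjusted p = 5.81e-05). HSP90AA1 and HSP90AB1 share 11.3% and 16.6% of their 50-base words with other genes, mostly with HSP90AA2P and HSP90AB3P, so a part of their reads could have been placed elsewhere.

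The HSP70 family was divided in the same way. HSPA8, the constitutive cytosolic HSC70, had 41389, 41619 and 41505 normalized counts in the libraries labelled si-Control and 34314, 36076 and 33143 in those labelled si-CITED2. The control values lay within a narrow band and all 3 others below it. HSPA8 fell by 16.9% (log2 fold change -0.27 ± 0.05 (SE), adjusted p = 0.000537). HSPA5 encodes BiP (GRP78), the HSP70 of the ER and a regulator of the unfolded protein response. It had 17360, 18760 and 17615 against 24871, 27346 and 27088 normalized counts, and rose 1.48-fold (log2 fold change 0.56 ± 0.05 (SE), adjusted p = 5.86e-07). HSPA13, a microsomal relative of HSP70, rose from 1218 ± 16.1 to 1416 ± 30.1 normalized counts (SD, n = 3; log2 fold change 0.22, adjusted p = 0.0106).

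HSPA1A and HSPA1B encode the strongly heat-inducible HSP70. They are near-identical neighbours on chromosome 6. HSPA1A shares 71.3% of its 50-base words with HSPA1B, and how such reads were counted is not given in the sources used here, so the split between the 2 genes is uncertain. HSPA1A had 5530, 5845 and 5605 normalized counts in the libraries labelled si-Control and 4322, 5046 and 4642 in those labelled si-CITED2 (log2 fold change -0.28 ± 0.06 (SE), adjusted p = 0.00227). HSPA1B had 5543, 5839 and 5541 against 4135, 4963 and 4530 normalized counts (log2 fold change -0.31 ± 0.06 (SE), adjusted p = 0.00139). Both fell without overlap between the groups, and replicate 1 was the lowest library labelled si-CITED2 for both. HSPA4L, an HSP110-like exchange factor, fell from 1472 ± 90.4 to 1233 ± 75.5 normalized counts (SD, n = 3; log2 fold change -0.25, adjusted p = 0.0114). That call was lost without si-Control replicate 3 or si-CITED2 replicate 2, with log2 fold changes of -0.30 to -0.21 over the 6 fits that each left out 1 library.

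HSPA9 encodes mortalin, the HSP70 of the mitochondrial matrix, and fell from 21684 ± 239 to 19399 ± 580 normalized counts (SD, n = 3; log2 fold change -0.16, adjusted p = 0.02). It passed in 2 of the 6 fits without 1 library (log2 fold changes -0.18 to -0.14) and failed without si-Control replicate 2, si-CITED2 replicate 1, si-CITED2 replicate 2 or si-CITED2 replicate 3. Of the 14 tested HSPA genes, 5 fell and 2 rose, so that 50% passed against 17.4% of all tested genes. As in every count of members here, HSPA1A and HSPA1B are taken as separate genes. HSPA1A shares 71.3% of its 50-base words with HSPA1B, so their calls may not be separate measurements. The other 7 of the 14 did not pass. Among the 7 was HSPA4, a cytosolic HSP110-type exchange factor, at 11269 against 11191 normalized counts (log2 fold change -0.01, 95% confidence interval -0.12 to 0.10). HSPA6, an HSP70 gene that is nearly silent without heat shock, stood at 94 ± 2.11 against 86.1 ± 15.4 normalized counts (SD, n = 3; log2 fold change -0.12, adjusted p = 0.704), and it shares 45.5% of its 50-base words with HSPA7. HSPH1, which encodes HSP110, did not pass either (2910 against 2662 normalized counts, log2 fold change -0.13, 95% confidence interval -0.24 to -0.02, adjusted p = 0.102).

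**Figure D2:**
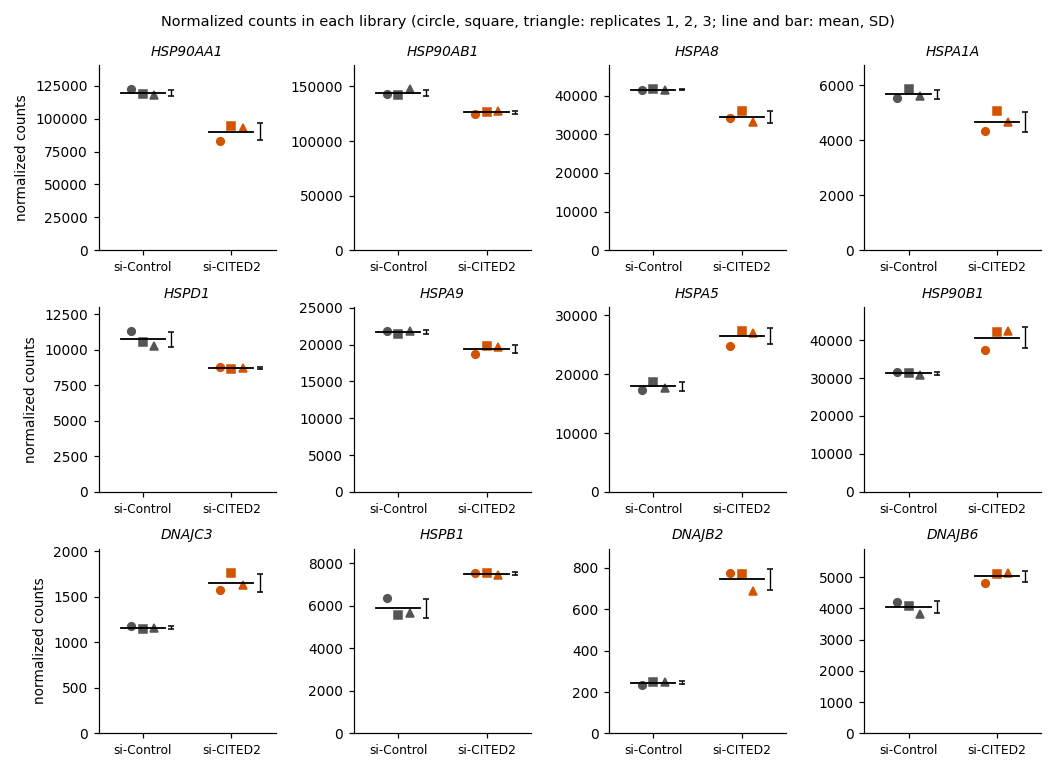
Normalized counts (y axis) of members in each library, by group; points are replicates 1, 2 and 3, and lines and bars are the mean and SD. HSP90AA1 lies lower and HSPA5 and DNAJB2 lie higher in all 3 libraries labelled si-CITED2.

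HSPD1 (HSP60) and HSPE1 (HSP10) form the mitochondrial chaperonin and are transcribed in opposite directions from neighbouring starts. HSPD1 had 11316, 10577 and 10297 normalized counts in the libraries labelled si-Control and 8802, 8654 and 8725 in those labelled si-CITED2. The values labelled si-CITED2 were close together and all lower, and HSPD1 fell by 18.7% (log2 fold change -0.30 ± 0.05 (SE), adjusted p = 0.000318). HSPE1 stood at 1116 against 1034 normalized counts and did not pass (log2 fold change -0.11, 95% confidence interval -0.26 to 0.03, adjusted p = 0.291). Within each library, HSPD1 was counted at 929%, 975% and 986% of HSPE1 in the libraries labelled si-Control and at 823%, 863% and 849% in those labelled si-CITED2. HSPD1 shares 13.2% of its 50-base words with other genes, and 35% of the exon bases of HSPE1 overlap other genes, so both levels are uncertain.

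No subunit of the TRiC (CCT) chaperonin, which folds actin and tubulin, passed the test. CCT2, CCT3, CCT4, CCT5, CCT6A, CCT7, CCT8 and TCP1 all had log2 fold changes below 0, from -0.13 for CCT8 to -0.01 for CCT2, with a median of -0.07. CCT8 was nearest to the threshold, at 11810 against 10763 normalized counts (log2 fold change -0.13, 95% confidence interval -0.23 to -0.04, adjusted p = 0.0584), and it passed in DESeq2 and without TMM scaling. TCP1 stood at 6585 ± 208 against 6135 ± 55.2 normalized counts (SD, n = 3; log2 fold change -0.10, adjusted p = 0.152). The tissue-restricted CCT6B stood at 41.2 against 42.9 normalized counts. The pseudogenes CCT6P1 and CCT6P3 stood at 198 against 188 and at 205 against 194 normalized counts, and CCT6P1 shares 40.3% of its 50-base words with other genes.

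Of the 8 small heat shock protein genes, 4 were tested. HSPB1 encodes HSP27, an actin-associated chaperone that is also heat-inducible. It had 6387, 5587 and 5691 normalized counts in the libraries labelled si-Control and 7566, 7538 and 7445 in those labelled si-CITED2. The 3 latter values lay close together above all others, and HSPB1 rose 1.28-fold (log2 fold change 0.35 ± 0.05 (SE), adjusted p = 0.000184). HSPB11, which despite its symbol is a component of intraflagellar transport, stood at 895 against 1024 normalized counts (adjusted p = 0.0532). HSPB8 stood at 97 against 109 and HSPB6 at 21.9 against 21.6 normalized counts, and neither passed.

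The J-domain genes held the largest change of the members that passed. DNAJB2 encodes HSJ1, which passes ubiquitylated clients of HSP70 to the proteasome and is best known from neurons. It had 236, 249.6 and 249 normalized counts in the libraries labelled si-Control and 776, 767 and 686 in those labelled si-CITED2. The lowest value labelled si-CITED2 was far above the highest labelled si-Control, and DNAJB2 rose 3.04-fold (log2 fold change 1.60 ± 0.08 (SE), adjusted p = 6.00e-10). None of its exon bases overlap another gene in the GENCODE 29 annotation. DNAJB6, a suppressor of polyglutamine aggregation, had 4200, 4079 and 3820 against 4809, 5112 and 5143 normalized counts and rose 1.25-fold (log2 fold change 0.32, adjusted p = 0.000343). DNAJB5, a cytosolic J-domain protein, rose from 685 ± 28.5 to 962 ± 75.8 normalized counts (SD, n = 3; log2 fold change 0.49, adjusted p = 0.00011). DNAJB4, another cytosolic partner of HSP70, rose from 1539 ± 78.4 to 1755 ± 42.4 normalized counts (SD, n = 3; log2 fold change 0.19, adjusted p = 0.0291). It passed in 1 of the 6 fits without 1 library (log2 fold changes 0.15 to 0.22) and failed without si-Control replicate 2, si-Control replicate 3, si-CITED2 replicate 1, si-CITED2 replicate 2 or si-CITED2 replicate 3.

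DNAJB1 (HSP40), the main heat-inducible partner of HSP70, did not pass. Its level was 2801, 2587 and 2522 normalized counts in the libraries labelled si-Control and 2431, 2379 and 2485 in those labelled si-CITED2, a difference without overlap (log2 fold change -0.12, adjusted p = 0.159; 95% confidence interval -0.23 to -0.0032). DNAJA1, a related cytosolic partner, stood at 5021 against 4844 normalized counts (adjusted p = 0.557). DNAJB12, an ER membrane protein whose J domain faces the cytosol, fell from 1279 ± 66.5 to 1105 ± 30.3 normalized counts (SD, n = 3; log2 fold change -0.21, adjusted p = 0.0238). It passed in 2 of the 6 fits without 1 library (log2 fold changes -0.24 to -0.17) and failed without si-Control replicate 2, si-Control replicate 3, si-CITED2 replicate 1 or si-CITED2 replicate 3. Of the 41 tested DNAJ genes, 6 rose, 3 fell and 32 did not pass. The share that passed was 21.95%, against 17.4% of all tested genes (9.36% higher and 8.09% lower). In the DNAJB series 6 of 11 tested genes passed (54.55%), in the DNAJC series 2 of 26 (7.69%) and in the DNAJA series 1 of 4 (25%). The difference between the series was not tested.

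DNAJC3 and DNAJC9 were the DNAJC genes that passed. DNAJC3 encodes p58IPK, a luminal partner of BiP that also inhibits the kinases PKR and PERK. It had 1177, 1150 and 1151 normalized counts in the libraries labelled si-Control and 1569, 1763 and 1628 in those labelled si-CITED2, and rose 1.43-fold (log2 fold change 0.51 ± 0.06 (SE), adjusted p = 9.51e-06). The control values were close together and well below the rest. DNAJC9, a nuclear histone chaperone, fell from 2871 ± 83.1 to 2406 ± 119 normalized counts (SD, n = 3; log2 fold change -0.25, adjusted p = 0.00277), and 32.5% of its exon bases overlap other genes. DNAJA3 (TID1), the J-domain partner of HSPA9 in mitochondria, fell from 2329 ± 126 to 1874 ± 57.3 normalized counts (SD, n = 3; log2 fold change -0.31, adjusted p = 0.000755). DNAJC7, a cytosolic protein that binds both HSP70 and HSP90, was near the threshold (5001 against 4560 normalized counts, adjusted p = 0.0599) and passed in DESeq2 and without TMM scaling, and 37.5% of its exon bases overlap other genes.

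By compartment, the listed ER members had a median above 0 and the other members did not. Of 11 listed ER members, all tested, 5 rose (HSPA5, DNAJC3, HSP90B1, DNAJB11 and HSPA13) and 0 fell, with a median log2 fold change of 0.22. The list leaves out the ER membrane proteins DNAJB12, which fell, and DNAJB14, though it holds the similar DNAJC18. With both added, a choice made after seeing the data, 5 of 13 rose and 1 fell, with a median of 0.15. DNAJB11 (ERdj3), which delivers unfolded clients to BiP, had 5462, 5045 and 4859 normalized counts in the libraries labelled si-Control and 6023, 6012 and 5984 in those labelled si-CITED2 (log2 fold change 0.23, adjusted p = 0.00451), and 34.7% of its exon bases overlap other genes. DNAJB9 (ERdj4), a target of the unfolded protein response, stood at 169 ± 15.5 against 208 ± 22.2 normalized counts (SD, n = 3; log2 fold change 0.29, adjusted p = 0.128). DNAJC10 (ERdj5), a luminal disulfide reductase, stood at 3676 against 3993 normalized counts (adjusted p = 0.115). ER partners of BiP on the co-chaperone list did not pass either. The log2 fold change was 0.06 for HYOU1 (GRP170, adjusted p = 0.438), -0.01 for SIL1 (adjusted p = 0.915), 0.12 for SEC63 (adjusted p = 0.132) and 0.25 for SDF2L1 (adjusted p = 0.0811). Of 10 mitochondrial members, 3 fell (DNAJA3, HSPD1 and HSPA9) and 0 rose, with a median of -0.06. Of the 57 other tested members, 8 fell and 5 rose, with a median of -0.06. By share, 45.5% of the ER, 30% of the mitochondrial and 22.8% of the other tested members passed. Of all tested genes, 17.4% passed (9.36% higher and 8.09% lower), with a median of -0.001. The difference between the compartments was not tested.

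**Figure D3:**
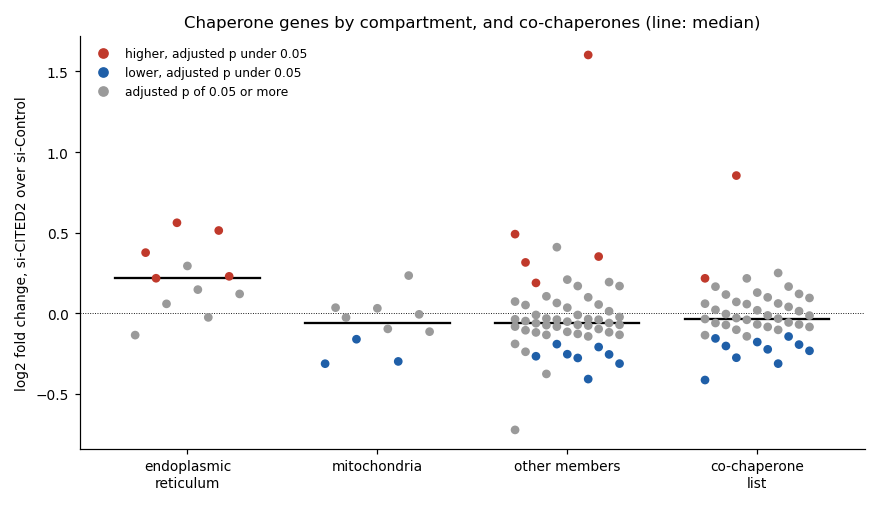
Log2 fold change (y axis; libraries labelled si-CITED2 over si-Control) of the tested members by compartment and of the co-chaperone list; each point is a gene and the line is the median. The ER members have the highest median, at 0.22.

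Ratios of counts within a library do not depend on scaling between libraries. HSPA5 was counted at 41.9%, 45.1% and 42.4% of HSPA8 in the libraries labelled si-Control and at 72.5%, 75.8% and 81.7% in those labelled si-CITED2, a mean 1.78 times as high. HSP90B1 was counted at 25.9%, 26.4% and 26.2% of HSP90AA1 against 45.2%, 44.6% and 45.5%, which is 1.72 times as high. HSP90AB1 was counted at 117%, 119.8% and 125% of HSP90AA1 against 149.7%, 134% and 137%, so the cytosolic pair also shifted relative to each other. These ratios restate the counts behind the fold changes.

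**Figure D4:**
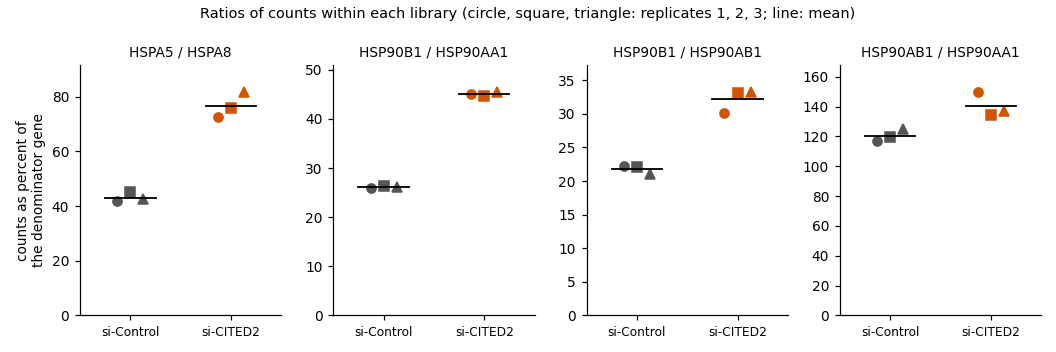
Counts of one gene as a percentage of those of another in the same library (y axis, from 0), by group; points are replicates 1, 2 and 3. The mean of HSPA5 over HSPA8 was 43.1% in si-Control and 76.7% in the libraries labelled si-CITED2, without overlap.

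Per kilobase of exon sequence, the HSP90 genes and HSPA8 were the most abundant members. In si-Control, HSP90AB1 stood at 2051 CPM per kilobase, HSP90AA1 at 1261, HSPA8 at 652, HSP90B1 at 464 and CCT3 at 448. In the libraries labelled si-CITED2 these levels were 1797, 950.2, 542, 602 and 426 CPM per kilobase, so that HSP90B1 stood above HSPA8. Of the 10 members with the highest level in si-Control, 5 passed the test and the other 5 were TRiC subunits. None of the 18 tested members with a control mean below that of DNAJB2 (245 normalized counts) passed, and the interval could be wide at that depth, as for DNAJB13 (20.7 against 12.5 normalized counts, 95% confidence interval -1.52 to 0.08). The 86 members together took 2.56%, 2.54% and 2.54% of all counts in the libraries labelled si-Control and 2.25%, 2.38% and 2.35% in those labelled si-CITED2.

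**Figure D5:**
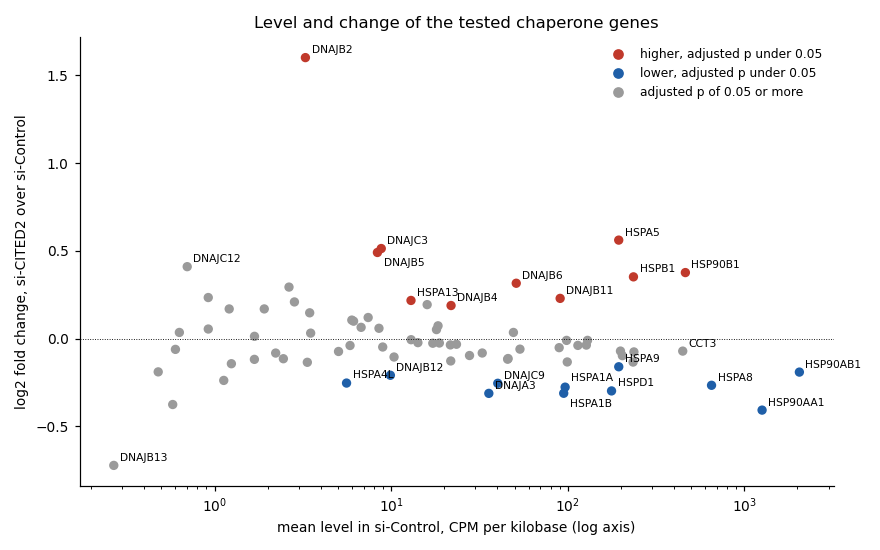
Mean level in si-Control in CPM per kilobase (x axis, log scale) against the log2 fold change (y axis; libraries labelled si-CITED2 over si-Control) of the tested members, each point a gene. HSP90AB1, HSP90AA1 and HSPA8 lie at the right below 0, and HSP90B1 above it.

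Most members on a list of genes that heat shock is known to induce through HSF1 lay lower, though several did not pass. Of the 13 members on that list, 7 fell (HSP90AA1, HSPA1B, HSPD1, HSPA1A, HSPA8, HSPA4L and HSP90AB1), HSPB1 rose, and HSPA6, HSPH1, HSPE1, DNAJA1 and DNAJB1 did not pass. HSPA1A and HSPA1B, which share most of their 50-base words, are counted as separate genes in these numbers. The log2 fold change was below 0 for 12 of the 13, with a median of -0.19. Of all 16314 tested genes, 8210 lay below 0 and 8.09% fell. HSPA8 and HSP90AB1, described above as constitutive, are among the listed genes that fell. Of the list's co-chaperones, AHSA1 and STIP1 fell, while BAG3 (3134 against 3423 normalized counts, adjusted p = 0.126), CHORDC1 (2151 against 2097) and SERPINH1 (1669 against 1789) did not pass, and CRYAB was too low to be tested. The mRNA of the factors themselves did not pass. HSF1 stood at 1234 ± 72.6 against 1205 ± 109.7 normalized counts (SD, n = 3; log2 fold change -0.03, adjusted p = 0.818), HSF2 at 431 against 448 normalized counts and HSF4 at 65.6 against 66.8 normalized counts. HSF1 is regulated mainly as a protein, which was not measured here.

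The printed promoters were chosen from members that passed the test and held an element. Whether the elements have a part in the changes was not tested. Of the 7 members with a heat shock element trimer, HSP90AA1, HSP90AB1, HSPA8 and HSPD1 fell, DNAJB6 rose, and HSPA6 and DNAJA1 did not pass. A pair of units was found in 8 of the 11 members that fell, in 3 of the 10 that rose and in 13 of the 47 matched members that did not pass. The ER stress elements were in HSPA5 and HSP90B1, both of which rose, whereas DNAJC3, DNAJB11 and HSPA13 rose without these letters in the window. None of the motifs was found in the promoter of DNAJB2.

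Among the 48 co-chaperones outside the rule, 47 were tested, 10 fell and 2 rose. The share that passed was 25.5%, against 17.4% of all tested genes (8.09% lower and 9.36% higher). In the fits without 1 library, 4 to 8 fell and 1 to 5 rose. The number that fell was 5 without si-Control replicate 2, 6 without si-Control replicate 3, 6 without si-CITED2 replicate 2 and 4 without si-CITED2 replicate 3. Over all tested genes, 1319 fell in the main fit and 882, 1011, 881 and 897 in these fits, in the same order. HSBP1, which binds HSF1 and restrains it, rose from 2174 ± 161 to 2529 ± 124 normalized counts (SD, n = 3; log2 fold change 0.22, adjusted p = 0.0205). It passed in 2 of the 6 fits without 1 library (log2 fold changes 0.16 to 0.26) and failed without si-Control replicate 2, si-Control replicate 3, si-CITED2 replicate 2 or si-CITED2 replicate 3. None of the 9 genes of TCP1, the prefoldins and their partners passed.

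Of 17 partners and relatives of HSP90, 6 fell and 0 rose. The share that fell was 35.3%, against 8.09% of all tested genes. FKBP4 (FKBP52), an immunophilin that acts on steroid receptors with HSP90, had 6365, 6152 and 6284 normalized counts in the libraries labelled si-Control and 5042, 4993 and 5111 in those labelled si-CITED2, and fell by 19.4% (log2 fold change -0.31 ± 0.05 (SE), adjusted p = 0.000114). TRAP1, the mitochondrial HSP90, fell from 5546 ± 201 to 4586 ± 219.9 normalized counts (SD, n = 3; log2 fold change -0.28, adjusted p = 0.00105), and 28% of its exon bases overlap another gene. The others were STIP1 (HOP), which links HSP70 to HSP90, the immunophilin FKBP5, the ubiquitin ligase STUB1 (CHIP) and AHSA1, the activator of the HSP90 ATPase, and these calls were less stable. The log2 fold change was -0.19 for STIP1 (adjusted p = 0.0106, 4 of 6 fits), -0.16 for FKBP5 (adjusted p = 0.0346, 0 of 6 fits), -0.18 for STUB1 (adjusted p = 0.0315, 2 of 6 fits) and -0.14 for AHSA1 (adjusted p = 0.0434, 2 of 6 fits), where the fits are those without 1 library that kept the call. STIP1 lost it without si-CITED2 replicate 2 or si-CITED2 replicate 3. STUB1 and AHSA1 lost it without si-Control replicate 2, si-Control replicate 3, si-CITED2 replicate 2 or si-CITED2 replicate 3. FKBP5 lost it without any 1 library, and 42.6% of the exon bases of STUB1 overlap another gene. The count of 6 thus became 2 without si-CITED2 replicate 2 or si-CITED2 replicate 3 and 3 without si-Control replicate 2 or si-Control replicate 3. STIP1, FKBP5, STUB1 and AHSA1 were named after their values were seen.

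Of 13 exchange factors and partners of HSP70, 4 fell and 0 rose. The share that fell was 30.8%, against 8.09% of all tested genes. BAG1, an exchange factor, had 2682, 2537 and 2757 normalized counts in the libraries labelled si-Control and 1959, 2034 and 1990 in those labelled si-CITED2 (log2 fold change -0.41 ± 0.05 (SE), adjusted p = 2.68e-05), the largest fall of the co-chaperone list. GRPEL1, the exchange factor of HSPA9, fell from 1363 ± 56.7 to 1160 ± 30.9 normalized counts (SD, n = 3; log2 fold change -0.23, adjusted p = 0.0101). BAG2, an inhibitor of CHIP, fell from 1433 ± 72.7 to 1227 ± 99.4 normalized counts (SD, n = 3; log2 fold change -0.22, adjusted p = 0.0286), and 44.2% of its exon bases overlap other genes. HSPBP1, a cytosolic exchange factor, fell from 1138 ± 69.8 to 987 ± 51.3 normalized counts (SD, n = 3; log2 fold change -0.20, adjusted p = 0.0439). BAG2 passed in 2 of the 6 fits without 1 library (log2 fold changes -0.29 to -0.17), failing without si-Control replicate 1, si-Control replicate 2, si-CITED2 replicate 1 or si-CITED2 replicate 3. HSPBP1 passed in 2 (-0.25 to -0.17), failing without si-Control replicate 2, si-Control replicate 3, si-CITED2 replicate 1 or si-CITED2 replicate 3, and it missed the threshold in DESeq2. The count of 4 thus became 2 without si-Control replicate 2, si-CITED2 replicate 1 or si-CITED2 replicate 3.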

How the data were processed

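RNA was extracted with Trizol and libraries were made with a SMARTer mRNA-Seq kit. The authors deposited unnormalized read counts for each gene symbol in separate files, 1 for each library. The submitters' processing notes name TopHat, edgeR and the build hg19. The counting program, its strand setting and the annotation are not given in the sources used here. Where a symbol was listed repeatedly, its row of highest count was used. HSPA1A, HSPA1B and HSPA1L had 5 rows each, and the rows left out held 0 counts.

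The 6 libraries were compared in R 4.3.3 with edgeR 4.0.16 (filterByExpr, TMM, glmQLFit and glmQLFTest, no block), with Benjamini-Hochberg adjustment over the 16314 genes tested. DESeq2 1.42.0, other scalings, other filters, a replicate block and leaving out each library were alternatives. Lengths, exon overlap on either strand and shared 50-base words came from GENCODE 29. The scripts were tested on simulated data. Total counts per library were 19508925 to 28936374. The spread within a group exceeded counting error, with a chi-square of 2.79 to 7.48 for each degree of freedom.

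The members and lists were chosen with earlier results of these data known. Genes named by rule were a fixed set (the HSP90 and HSF genes, HSPA1A, HSPA1B, HSPA5, HSPA8, HSPA9, HSPH1, HSPB1, HSPD1, HSPE1, DNAJA1, DNAJB1, CITED2 and TCP1), at most the 6 passing members of each family and at most the 8 passing co-chaperones with the largest absolute log2 fold change. Other genes were named after their values were seen. Results for some genes of the lists are not reported here.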

Additional observations from a re-analysis of the deposited data

How the results depend on the processing

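All 21 members that passed also passed with DESeq2 size factors in edgeR, with library size without TMM, with no filter beyond a count above 0, with at least 10 counts in every sample, with repeated rows summed and in DESeq2, which called 23 members. Leaving out 1 library at a time gave 9 to 10 members higher and 9 to 11 lower. Every scaling moved the median of all genes by less than 0.1 on the log2 scale. The log2 fold change of CITED2 was 0.221 (adjusted p = 0.0518) without TMM and 0.173 to 0.291 without 1 library, and missed the threshold without si-Control replicate 1, si-Control replicate 3, si-CITED2 replicate 1 or si-CITED2 replicate 3. Co-chaperones called higher numbered 4 with no filter on low counts and 1 to 5 without 1 library (5 without si-Control replicate 1, and 1 without si-Control replicate 2 or 3 or si-CITED2 replicate 2 or 3). Those called lower numbered 4 to 8, with 4 without si-CITED2 replicate 3, 5 without si-Control replicate 2 and 6 without si-Control replicate 3 or si-CITED2 replicate 2. The log2 fold changes of the factors crossed 0 without passing: HSF1 reached 0.013 and 0.0431 without replicate 3 of either group, HSF2 -0.0143 without si-CITED2 replicate 2, and HSF4 -0.00492 without TMM and -0.123, -0.0812 and -0.0764 without si-Control replicate 1, si-CITED2 replicate 1 or si-CITED2 replicate 3. Over all fits without 1 library, their values ran from -0.0773 to 0.0431, from -0.0143 to 0.136 and from -0.123 to 0.186. The cause was not tested. At the depth of these libraries, members with few counts could not be resolved.

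Libraries with the same replicate number did not deviate together (correlations of their deviations -0.038, 0.0336 and -0.0109), so the numbers were not taken as a pairing, and not every library correlated best with its own number. With the replicate block, 10 members were higher and 11 lower, all 21 of them also called without it, 3 co-chaperones were higher and 8 lower (4 of these HSP90 partners), 1405 of all genes were higher and 1154 lower, and the log2 fold change of CITED2 was 0.24.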
